A study of Equus caballus with 16 samples.

Results

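miR-122 is 1 of 686 equine miRNAs listed in small RNA libraries of follicular fluid extracellular vesicles (FF-EVs), and it was chosen by its name together with its known season pattern, its spread between libraries and the miRNAs that moved with it. The 16 libraries came from mares of 1 horse breed, 8 to 14 years old, 4 for each of 4 seasons. SAN is March, when anovulatory follicles grow before the ovulatory season. SOV is April and May, the start of regular ovulatory cycles, SUM is June and July, and FOV is September, the last part of the ovulatory season. The season of collection was the only grouping, earlier follicles were ablated, and the fluid was drawn from growing follicles of 30 to 35 mm. Each library combined fluids of 2 to 3 mares. The study's fluids outnumbered its mares, so libraries share mares, and which mares made which library was not used here. FOV_1 was left out of the fits, as in the study's own comparisons, and is given among the levels.

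miR-122 is known as the most abundant miRNA of the mammalian liver. Hepatocytes make it from a liver-specific primary transcript, and it acts there on cholesterol and lipid metabolism. It also circulates in plasma, bound to proteins and inside vesicles, where a high level is used as a marker of liver injury. Follicular fluid forms from plasma that crosses the follicle wall and from products of the granulosa and theca cells, so its vesicles may come from cells inside or outside the follicle. In such bulk material, fewer vesicles of a kind and fewer copies per vesicle cannot be told apart.

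The mature sequences below show what was counted, and were taken from the study's supplementary list of expressed miRNAs, which writes T for U. The capitals mark the seed, bases 2 to 8 from the 5′ end, which pairs with target transcripts. miR-122 stands first, then the liver-enriched miRNAs that the results turn on. Below them are miR-92a, which ran most closely with miR-122, miR-25, which shares the seed of miR-92a, and miR-23b, which ran most closely against miR-122.
miR-122: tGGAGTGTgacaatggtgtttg
miR-192: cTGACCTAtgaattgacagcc
miR-215: aTGACCTAtgaattgacagac
miR-148a: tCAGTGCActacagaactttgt
miR-483: tCACTCCTctcctcccgtcttctt
miR-92a: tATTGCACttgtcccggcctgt
miR-25: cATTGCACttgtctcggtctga
miR-23b: aTCACATTgccagggattacc

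The miR-122 seed, GGAGTGT, was held by no other of the 282 miRNAs with a sequence, at its seed position or elsewhere. The sequence nearest to the 22 bases of miR-122 was that of miR-206, at 8 edits, so miR-122 had no near-identical copy in the list to share its reads. Its seed match in a target would read ACACTCC. By contrast, miR-192 and miR-215 share the seed TGACCTA, and miR-92a and miR-25 share ATTGCAC with miR-32, miR-363 and miR-92b.

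The depth here is that of reads assigned to miRNAs, not of all reads sequenced. Between 27131 and 112146 reads were assigned to miRNAs (median 51696), 180 to 264 miRNAs had a read, and 1 read was worth 7.91 to 35.6 CPM, reads scaled to a common library size by TMM. No pair of libraries was a copy. miR-122 had 6207 reads over the 16 libraries and a mean of 5611 CPM, the 32nd highest mean. The 95% intervals below are exact Poisson intervals for CPM and Wilson intervals for shares, and cover counting error only.

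In SAN vesicles, miR-122 was at 4663, 2851, 4489 and 4070 CPM in libraries 1 to 4. In SOV vesicles it was at 628, 1039, 602 and 4100 CPM. The level was thus low in 3 SOV libraries, while SOV_4 sat within the range of SAN.

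In SUM vesicles, miR-122 was at 8091, 9450, 8406 and 7181 CPM. In FOV vesicles it was at 3892, 1200, 14664 and 14456 CPM. SUM was the even season, and FOV held the 2 highest levels of the series, in FOV_3 and FOV_4. FOV_2 was below every SAN library, and lay between SOV_2 and SOV_4. The lowest and highest libraries, SOV_3 and FOV_3, stood 24.3-fold apart.

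**Figure D1:**
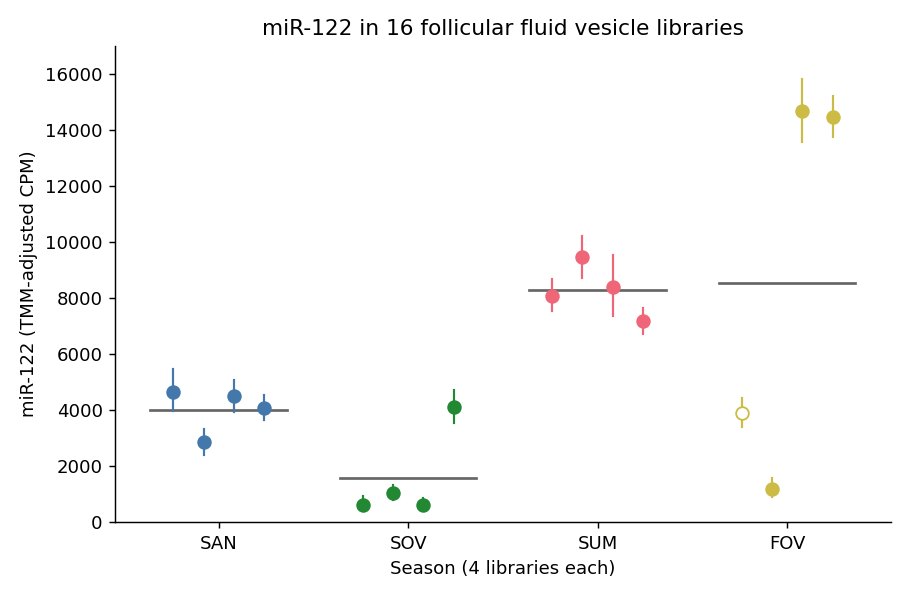
miR-122 in each library (points, TMM-adjusted CPM, with the exact 95% Poisson interval of its reads), by season in calendar order, with the mean of 4 libraries as a grey line and FOV_1 as an open point. The 4 SUM libraries sit between 7181 and 9450 CPM, while SOV and FOV each hold libraries far from their mean.

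Counting error did not span these gaps. SOV_1 had 24 reads of miR-122 (403 to 935 CPM) and SOV_4 had 193 (3542 to 4721 CPM). FOV_3 had 657 reads (13564 to 15829 CPM), against 53 in FOV_2 (899 to 1570 CPM). As a share of all miRNA reads, miR-122 made up 1.59% of FOV_3 (1.48% to 1.72%) and 0.0582% of SOV_1 (0.0391% to 0.0866%). Within a library it ranked from the 15th most abundant miRNA, in FOV_3, to the 65th, in SOV_1.

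The season mean of miR-122 was 4018 ± 817 CPM for SAN, 1592 ± 1684 CPM for SOV, 8282 ± 936 CPM for SUM and 8553 ± 7023 CPM for FOV (SD, n = 4 each). Without FOV_1 the FOV mean was 10107 ± 7714 CPM (n = 3). The order of the means was SOV, SAN, SUM and FOV from low to high. The first pair of neighbours in that order overlapped because of SOV_4, and the last pair because of FOV_1 and FOV_2. SAN and SUM, the neighbours in the middle, did not.

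SUM vesicles lay above both spring seasons in every library. All 4 SUM libraries exceeded all 4 SAN libraries, whose highest was 4663 CPM, and all 4 SOV libraries, whose highest was 4100 CPM. The ratio of means was 2.06 for SUM over SAN and 5.20 for SUM over SOV. Such a lack of overlap with the higher values in SUM was found for 9.93% of the 282 miRNAs tested against SAN and 13.5% against SOV. miR-122 was named with this pattern known, so nothing is read from these shares and no test is given for it.

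On the log2(CPM + 1) scale of the fit over 15 libraries, the difference was 1.06 for SUM minus SAN (SE 0.67) and 2.87 for SUM minus SOV (SE 0.67). For SOV minus SAN it was -1.81 (SE 0.67), with SOV higher in 2 of 16 pairs of libraries, both times through SOV_4. Without SOV_4 that difference was -2.43. The median of the signed differences of all miRNAs tested was 0.14 for SUM minus SAN, 0.51 for SUM minus SOV and -0.22 for SOV minus SAN. Rises and falls cancel in that median, and miR-122 was named with its pattern known, so nothing is read from its distance to it.

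Each FOV difference moved with the FOV library left out. They were 0.68 for FOV minus SAN, 2.49 for FOV minus SOV and -0.38 for FOV minus SUM (SE 0.73 each), and became 1.88, 3.69 and 0.82 without FOV_2. Without FOV_3 they were 0.078, 1.89 and -0.98, and without FOV_4 0.088, 1.90 and -0.97. FOV minus SUM thus turned its sign without FOV_2, and the ratio of means of FOV over SUM, 1.22, also ran the other way from the log2 difference, because the log scale gives the low FOV_2 more weight. FOV exceeded SUM in 8 of 12 pairs of libraries and SAN in 8 of 12. For the mean of SUM and FOV minus the mean of SAN and SOV, the difference was 1.78 (SE 0.49), and the later value was higher in 51 of 56 pairs.

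**Figure D2:**
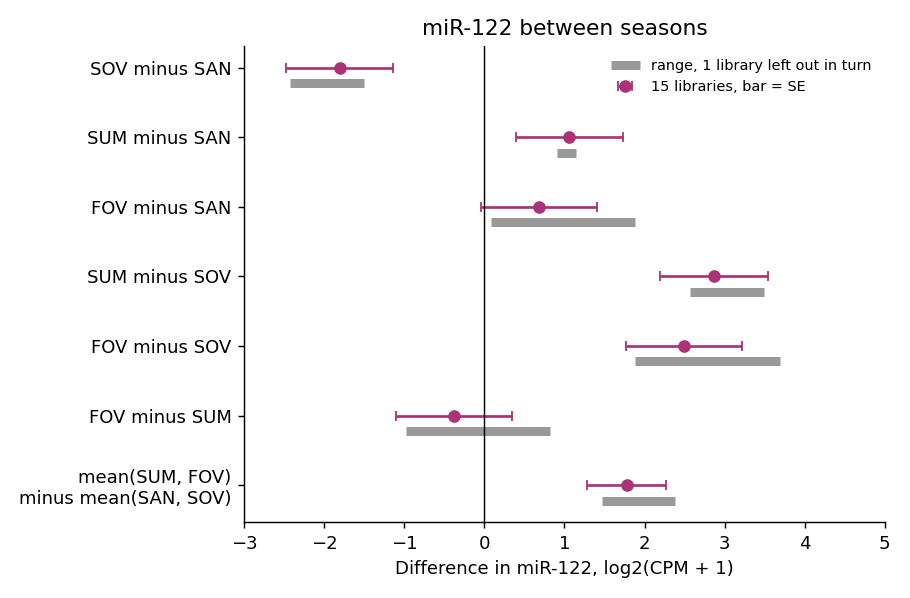
Differences in miR-122 between seasons on the log2(CPM + 1) scale, later minus earlier (points, 15 libraries), with the range when each library was left out in turn (grey). Bars are SE from a spread shared by all 4 seasons. SUM minus SOV is at 2.87 and FOV minus SOV at 2.49, an order that turns without FOV_2 (2.87 and 3.69), and FOV minus SUM crosses 0, between -0.98 and 0.82.

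The spread of miR-122 was itself uneven. Its coefficient of variation was 20.3% over the SAN libraries, 106% over SOV, 11.3% over SUM and 82.1% over FOV. On the log2 scale its SD in SUM was 0.16, the 8th lowest of 149 miRNAs with a mean over 100 CPM there, whose median SD was 0.68. In FOV its SD was 1.73, the 10th highest of 141 miRNAs with a median SD of 0.66. SAN (0.32, median 0.62) resembled SUM in this and SOV (1.29, median 0.58) resembled FOV. miR-122 was therefore among the steadier miRNAs in SAN and SUM and among the more variable ones in SOV and FOV.

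FOV_3 and FOV_2, a pair picked out after its values were seen, were close in the abundant miRNAs but not in miR-122. Of all 120 pairs of libraries they had the lowest median difference over miRNAs with a mean over 100 CPM, at 0.27 on the log2 scale. Of these 146 miRNAs, 84.2% lay within 2-fold. miR-122 was 12.2-fold higher in FOV_3 than in FOV_2. It gave 38.6% of the chi-square between their reads, more than any other miRNA. Among the 60 other miRNAs with a mean over 1000 CPM in the pair, none differed by 2-fold, and miR-10a, a miRNA of the HOX clusters, came nearest at 0.91 on the log2 scale. The only larger log2 difference among the 146 was that of miR-151-5p, with 9 reads in FOV_3 and 0 in FOV_2.

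**Figure D3:**
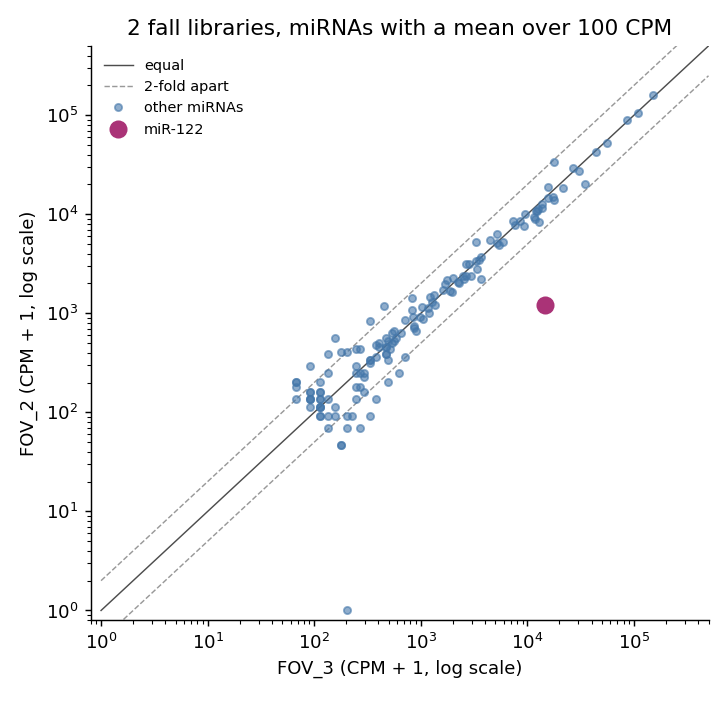
Levels of 146 miRNAs in FOV_3 (horizontal) and FOV_2 (vertical), both as CPM + 1 on log axes, with lines of equality and of 2-fold difference. miR-122, at 14664 CPM in FOV_3 and 1200 CPM in FOV_2, lies far off the diagonal on which the other abundant miRNAs sit.

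Between FOV_4 and FOV_3 the reverse was seen. miR-122 was equal there to 0.02 on the log2 scale, while the median difference of 145 miRNAs was 0.96. The SUM libraries gave a like case with miR-9a, a neural-enriched miRNA, which was at 19711, 177, 249 and 12702 CPM in SUM_1 to SUM_4 while miR-122 stayed within 7181 to 9450 CPM.

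Other liver-enriched miRNAs followed in part. The list held miR-192, miR-194 and miR-215, which are expressed in liver, gut and kidney and act in epithelial differentiation and the p53 response, miR-148a, abundant in hepatocytes and many other cells, miR-483, encoded in an intron of IGF2, miR-101, miR-885-5p, miR-802 and miR-455. Of these 9 miRNAs, 8 were listed in the table and 6 passed the filter, which asked for a season mean above 10 CPM. miR-885-5p, a liver marker in human plasma, had 2 reads in all and miR-802 had 3, too few to set beside miR-122.

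miR-192 was at 8235, 6843, 17284 and 14234 CPM in SAN, and at 6518, 24978, 38009 and 5566 CPM in SOV. It was at 49000, 49792, 46944 and 75872 CPM in SUM, and at 38787, 20405, 34484 and 130169 CPM in FOV. All 4 SUM libraries were above all SAN and SOV libraries. miR-192 rose in SUM by 2.32 relative to SAN (log2, SE 0.60, limma adjusted p = 0.0269) and by 1.99 relative to SOV (SE 0.60, adjusted p = 0.0264). The first call was lost without SAN_1, SAN_2 or SUM_4 (adjusted p up to 0.0816). The second was lost without SOV_1, SOV_4 or SUM_4 (highest 0.108), and also under DESeq2, edgeR or scaling by median of ratios (highest 0.142).

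miR-483 was at 823, 1020, 534 and 506 CPM in SUM, against 26.2, 0, 62.3 and 84.97 CPM in SOV, where 8 reads were seen in all. The 0 of SOV_2 allows up to 3 reads, or 53.7 CPM. It rose in SUM relative to SOV by 5.14 (log2, SE 1.18, limma adjusted p = 0.00763), with no overlap, and this call held in each alternative (adjusted p 0.000384 to 0.0230). The size of that difference rests on the pseudocount, since SOV held so few reads.

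Of the 6 tested members, 1 was called higher in SUM than SAN (miR-192), where 9.57% of all 282 miRNAs were called (4.26% higher and 5.32% lower), and 2 were called higher in SUM than SOV (miR-192 and miR-483), where 17.7% were called (12.1% higher and 5.67% lower). For the mean of SUM and FOV minus that of SAN and SOV, 12.8% of all miRNAs were called (9.93% higher), and among the members miR-192 (2.02, SE 0.44, adjusted p = 0.00533) and miR-215 (1.47, SE 0.48, adjusted p = 0.0471) were higher. The miR-215 call was lost on leaving out SAN_1, SAN_2, SAN_4, SOV_1, SOV_4, SUM_2, SUM_3, SUM_4, FOV_3 or FOV_4 and in 4 other alternatives (adjusted p up to 0.153). No member was called lower.

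limma called none of the 6 in SOV minus SAN (0% of all miRNAs called), FOV minus SAN (0.709%), FOV minus SOV (2.84%) or FOV minus SUM (3.55%). At an unadjusted p under 0.05 the counts in these comparisons were 1, 3, 1 and 0 of the 6, beside 31, 42, 65 and 49 of all 282. edgeR also called none of the 6 in them, and DESeq2 called 1, in FOV minus SAN, where it called 12 of all 282. The median difference of the 6 was 2.01 for SUM minus SAN, against 0.14 over all miRNAs tested. For SUM minus SOV it was 1.71, against 0.51. The SUM minus SOV rise was not particular to the liver list. Pancreas and gut miRNAs had a median of 2.24 there and brain miRNAs 1.94, with the other source lists below 1.71. In SUM minus SAN the liver median was above those of all other lists. It lay between miR-215 (1.70) and miR-192 (2.32), which share a seed, and whether members rose separately was not tested. miR-148a (0.14 and 0.58) and miR-101 (0.18 and 0.22) showed small differences that did not pass.

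**Figure D4:**
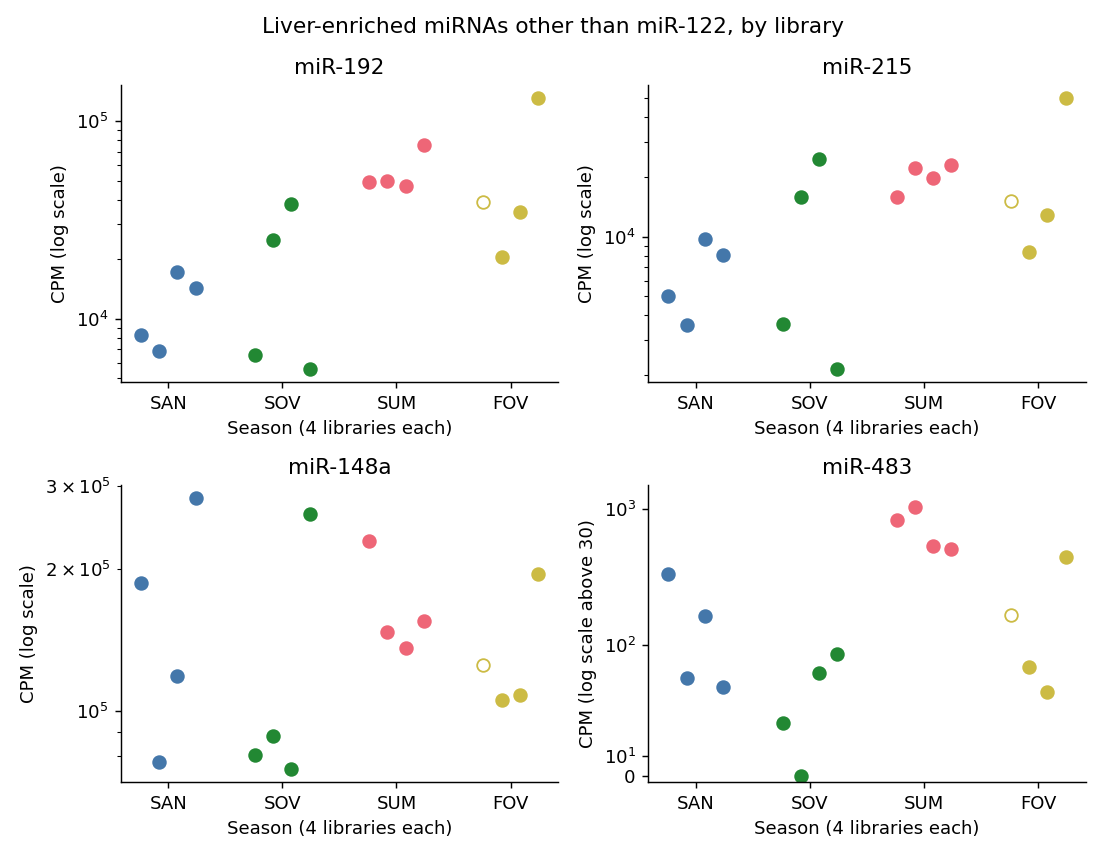
CPM of miR-192, miR-215, miR-148a and miR-483 in each library by season (log axes, with a linear stretch to 0 for miR-483, and FOV_1 open). miR-192 lies between 46944 and 75872 CPM in SUM, above all SAN and SOV libraries, while miR-148a overlaps between all seasons.

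Library by library, the likeness of miR-122 and miR-192 varied. SAN_2 was the lowest SAN library for miR-122, miR-192 and miR-215 (3592 CPM of miR-215), and FOV_2 the lowest FOV library for all 3 (8380 CPM of miR-215). SUM_4 had the lowest miR-122 of its season and the highest miR-192. In SOV_4, which had the highest miR-122 of its season, miR-192 was the lowest at 5566 CPM and miR-215 the lowest at 2146 CPM. In SOV_3, with the lowest miR-122, both were the highest of the season, at 38009 and 24779 CPM. The ratio of miR-122 to miR-192 reads ran between 0.0158 in SOV_3 and 0.737 in SOV_4, a 46.5-fold span, and that to miR-215 spanned 78.6-fold. Against miR-148a the ratio spanned 17.4-fold, between 0.00780 and 0.136, and SOV_4, at 261751 CPM, had the highest miR-148a of SOV too.

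The likeness of 175 other miRNAs, each with a season mean over 100 CPM, was ranked by Spearman's rho with miR-122 over the 16 libraries. The libraries share depth, TMM scaling and season, so these values are descriptions. The median rho was 0.11, with 17 miRNAs over 0.6 and 12 under -0.6. The highest were miR-92a (0.82), miR-409-3p (0.76), miR-25 (0.71), miR-128 (0.69), miR-1839 (0.67), miR-486-5p (0.67), miR-744 (0.66) and miR-22 (0.66). miR-92a and miR-25 are abundant in red blood cells and belong to the seed family shown above, miR-486-5p is a red cell and muscle miRNA, miR-409-3p comes from the imprinted DLK1-DIO3 cluster and miR-128 is enriched in neurons. The liver list ranked lower, with miR-483 at 0.62, miR-148a at 0.57, miR-192 at 0.54, miR-194 at 0.54, miR-215 at 0.33 and miR-101 at -0.04.

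miR-92a shows what this likeness rested on. Its season mean was 4999 ± 923 CPM for SAN, 3079 ± 407 CPM for SOV, 8690 ± 1609 CPM for SUM and 8298 ± 3495 CPM for FOV (SD, n = 4 each), the season order of miR-122 but for the last pair. Its Pearson's r with miR-122 on the log2 scale was 0.75. Without SOV_3 and SOV_1, the libraries farthest from the median of miR-122, r was 0.61 and rho 0.73. FOV_2 broke the likeness, with 7564 CPM of miR-92a beside 1200 CPM of miR-122, and without it rho was 0.89.

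The lowest values belonged to miR-23b (-0.83), miR-199a-5p (-0.78), miR-28-5p (-0.76) and miR-143 (-0.75). miR-23b is broadly expressed, and miR-199a-5p and miR-143 are typical of fibroblasts and smooth muscle. miR-23b had season means of 1263 ± 81.8 CPM for SAN, 1829 ± 761 CPM for SOV, 287 ± 151 CPM for SUM and 1270 ± 602 CPM for FOV (SD, n = 4 each). miR-143, among the most abundant miRNAs of the libraries, had means of 157345 ± 21462 CPM for SAN, 217751 ± 51811 CPM for SOV, 17314 ± 9230 CPM for SUM and 166480 ± 79566 CPM for FOV. Both were thus lowest in SUM and highest in SOV.

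Most of the positive likeness followed the seasons. With each season's mean taken out, the rho of the 8 miRNAs above fell to between 0.07 (miR-128) and 0.50 (miR-1839), and no miRNA exceeded 0.6. The highest within seasons were then miR-148a (0.60), miR-146b-5p (0.54) and miR-302b (0.52). miR-146b-5p, a relative of miR-146a, reached 10536 CPM in SOV_4, against 1540 to 1885 CPM in the other SOV libraries. miR-302b, of the embryonic stem cell cluster, was sparse, with a highest value of 335 CPM in FOV_3 and no read in any SUM library. miR-23b stayed the lowest within seasons too, at -0.62.

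**Figure D5:**
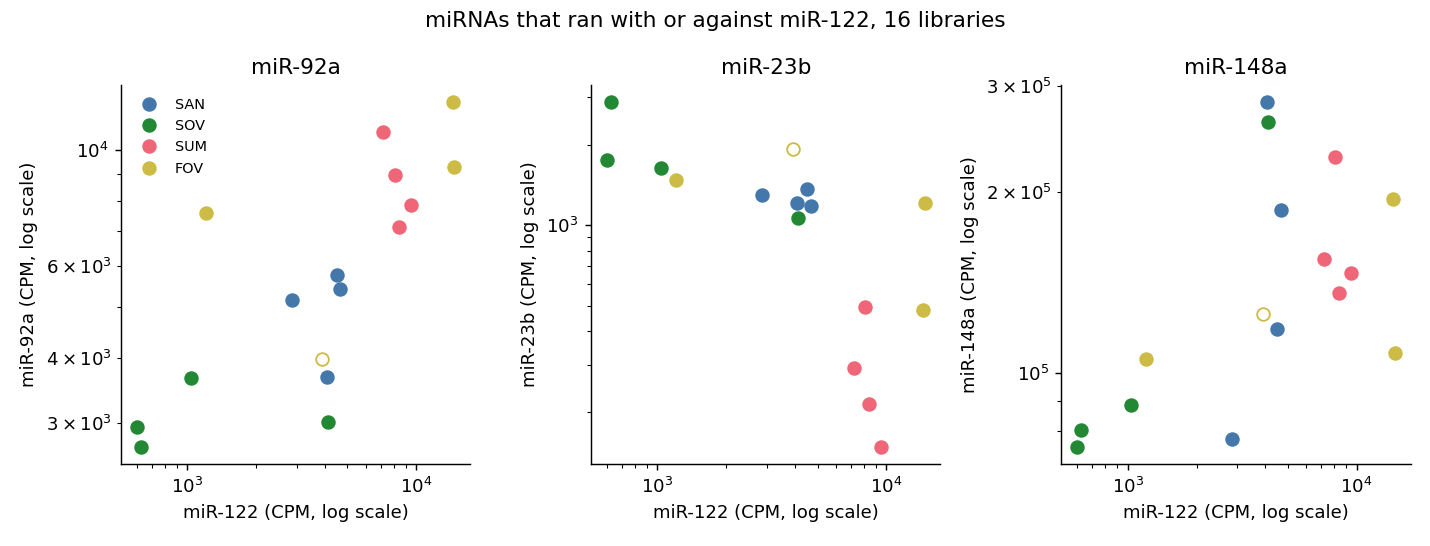
miR-92a, miR-23b and miR-148a (vertical, CPM) against miR-122 (horizontal, CPM) in 16 libraries on log axes, coloured by season, with FOV_1 open. miR-92a rises and miR-23b falls with miR-122 over the libraries (rho 0.82 and -0.83), while miR-148a has a rho of 0.57, or 0.60 within seasons.

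miRNAs of other cells that FF-EVs could carry moved between the same seasons, and their part in the miR-122 pattern was not tested. The erythrocyte list, of 8 members, had a summed level of 14136 to 24936 CPM over the SAN libraries, 11943 to 18651 CPM over SOV, 28993 to 86423 CPM over SUM and 15877 to 43211 CPM over FOV. The 86423 CPM was that of SUM_2, where miR-486-5p alone was at 67154 CPM. For SUM minus SOV, 4 of its 8 members were called higher and 1 lower, where 12.1% of all 282 miRNAs were called higher and 5.67% lower. Those higher were miR-486-5p (2.40, SE 0.63, adjusted p = 0.0140, lost without SOV_1 at 0.0542) and miR-92a (1.49, SE 0.27, adjusted p = 0.00123), with miR-25 (adjusted p = 0.00657) and miR-486-3p (adjusted p = 0.0199, lost without SOV_3, SOV_4 or SUM_2, up to 0.0643). miR-92a, miR-25 and miR-486-5p were also among the 8 miRNAs most like miR-122, a likeness that mostly followed the seasons. Their rise in SUM is thus not separate from that ranking, and nothing is read from the 4 of 8.

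miR-451, the most erythroid of these, went the other way. It was called lower in SUM than in SOV (-2.18, SE 0.67, adjusted p = 0.0288, lost in 3 alternatives, edgeR among them, and on leaving out SOV_1, SOV_4, SUM_1, SUM_3 or SUM_4, up to 0.126). It was at 535, 4791, 784 and 395 CPM in SUM, against 5550, 2399, 2202 and 11407 CPM in SOV. miR-451 was also called lower in SUM than SAN (-2.55, adjusted p = 0.0269, lost with edgeR and without any 1 of 6 libraries, up to 0.122). In FOV it was called higher than in SUM (3.59, adjusted p = 0.00563, lost with the compared seasons alone or without FOV_3, up to 0.0633). Its mean lay next to that of miR-122 over the series, yet its rho with miR-122 was 0.06, and the ratio of miR-122 to miR-451 reads spanned 226-fold. No defining erythrocyte marker was at 0 in every library, although miR-144, co-transcribed with miR-451, had 18 reads in all.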

How the data were processed

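Vesicles were pelleted from follicular fluid by ultracentrifugation, and TruSeq small RNA libraries were sequenced. The deposited values are a normalised signal, TMM-adjusted CPM. The study describes CLC Genomics Workbench 21 with trimming to a Q-score above 30, at most 2 ambiguous nucleotides and a length of at least 15, and miRBase 22 and EquCab3.0. The submitters' processing notes name bcl2fastq, Bowtie2 2.2.2 and DESeq2, and which description applies was not settled. The authors' TMM factors equal those of edgeR over 16 libraries (largest gap 5.79e-12). Every value was a whole number of reads (100% within 1e-06) times 1 factor per library, the value of 1 read being taken as the smallest value above 0 in the library. In SUM_1 that smallest value, 9.91 CPM, was held by several miRNAs, miR-133a, miR-138 and miR-216b among them.

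Members and lists were chosen with earlier results of these data known. limma 3.58.1 with an intensity trend (R 4.3.3) was fitted to log2(CPM + 1) of the 282 miRNAs whose mean passed 10 CPM in any season, over 15 libraries of 4 seasons without FOV_1. Every adjusted p is two-sided, comes from limma where no other tool is given, and was adjusted by Benjamini-Hochberg over all 282. Calls were made at adjusted p under 0.05 with a fold of at least 2. P-values measure the spread between these libraries, which share mares but were fitted as independent. For miR-122 and for the likeness of other miRNAs to it no p is given. miR-92a, miR-25, miR-486-5p and miR-128, among those most like it, have an adjusted p only as members of the lists. Named are miR-122, the liver list, the 8 highest and 4 lowest by Spearman's rho among miRNAs whose mean passed 100 CPM in any season, the 3 highest within seasons, the 2 most abundant of each list of erythrocyte, leukocyte, endothelial and platelet, muscle, pancreas and gut, brain, and granulosa and follicle miRNAs, and the 2 neighbours on each side by mean. miR-10a, miR-151-5p and the other called list members were named after their values were seen. miR-455, miR-375 and miR-202 were not analysed here, and miR-208a, miR-208b and miR-216a were at 0 in every library.

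Alternatives were FOV_1 kept, pseudocounts of 0.25 and 5, no filter or 100 CPM, median-of-ratios or equal-total scaling, the compared seasons alone, a replicate block, edgeR 4.0.16 and DESeq2 1.42.0 on recovered reads, and each library left out. The fit was also run on simulated data, with independent libraries and the same spread of a miRNA in every season. That run does not cover shared mares or a spread that differs between seasons, and nothing is read from it here. Figures were drawn with matplotlib 3.10.9.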

Additional observations from a re-analysis of the deposited data

Results flagged for a closer look

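Within a season, 84 groups of 4 libraries (21 miRNAs named in the text) were examined for a library apart from the rest. The rule was a gap to the next library over 0.829 of the whole range, and 12 were found. A rate of about 1 in 20 groups holds for independent, normally distributed values. These were CPM without a log, and many of the miRNAs were chosen for running with miR-122. The count of 12 is therefore not set against that rate. SOV_4 stood apart for miR-122 at 4100 CPM, for miR-148a at 261751 CPM, for miR-146b-5p at 10536 CPM and for miR-302b at 42.5 CPM, the last of which is 2 reads. miR-148a, miR-146b-5p and miR-302b had the highest rho with miR-122 within seasons, to which SOV_4 contributes. That they share this library partly follows from the ranking, and nothing is read from it. FOV_4 stood apart for miR-192 at 130169 CPM, miR-215 at 49842 CPM, miR-25 at 6080 CPM and miR-22 at 12574 CPM. SUM_4 was the high library for miR-192 at 75872 CPM and miR-128 at 24107 CPM, SUM_2 for miR-486-5p at 67154 CPM, and SAN_4 for miR-146b-5p at 3016 CPM. All 12 were high values. FOV_2, with its low miR-122, was not among them.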

How the results depend on the processing

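The miR-122 differences kept their direction under the alternatives run, except FOV minus SUM (-0.38), which was 0.05 with edgeR, 0.22 with DESeq2 and -0.98 to 0.82 with a library left out. Their sizes moved, to between -2.43 and -1.12 for SOV minus SAN (-1.81), 0.91 and 1.30 for SUM minus SAN (1.06), 2.17 and 3.49 for SUM minus SOV (2.87), and 1.47 and 2.38 for the mean of SUM and FOV minus that of SAN and SOV (1.78). FOV minus SOV exceeded SUM minus SOV with edgeR (2.58 and 2.53), DESeq2 (2.39 and 2.17) and as a ratio of means (6.35 and 5.20). Leaving out FOV_2 moved all 3 FOV differences by more than 1.13, the SD within seasons, within ranges of 0.078 to 1.88 for FOV minus SAN and 1.89 to 3.69 for FOV minus SOV. Median-of-ratios scaling shifted the median of all miRNAs by 0.22 for SOV minus SAN, -0.30 for SUM minus SOV, -0.35 for FOV minus SOV, -0.12 for FOV minus SUM, -0.10 for FOV minus SAN and -0.18 for the mean of SUM and FOV minus the mean of SAN and SOV. Relative to that median, miR-122 differed in SUM minus SOV by 2.38 with it and by 2.36 without.

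Counts of called miRNAs moved more, and the cause was not tested. With DESeq2 they were 1 for SOV minus SAN (0 in the fit reported, 31 at an unadjusted p under 0.05, and 0 with edgeR), 58 for SUM minus SAN (27), 12 for FOV minus SAN (2), 22 for FOV minus SOV (8) and 17 for FOV minus SUM (10), and 37 for the source lists (24). edgeR called 44 for SUM minus SAN and 0 for FOV minus SAN. SUM minus SAN had 16 calls with no filter. FOV minus SAN had 1 with FOV_1 kept and 4 with a filter of 100 CPM or the compared seasons alone, FOV minus SOV had 13 with a pseudocount of 5 and 3 with median of ratios, and FOV minus SUM had 6 with the compared seasons alone. With a library left out, the counts were 0 to 5 for SOV minus SAN, 10 to 27 for SUM minus SAN, 0 to 6 for FOV minus SAN, 32 to 57 for SUM minus SOV, 6 to 15 for FOV minus SOV, 4 to 19 for FOV minus SUM and 15 to 25 for the source lists. Calls split 12 higher to 15 lower for SUM minus SAN (11 to 8 with equal totals), 34 to 16 for SUM minus SOV (29 to 23 with median of ratios), 28 to 8 for SUM and FOV over SAN and SOV (23 to 13) and 1 to 1 for FOV minus SAN (2 to 0 with equal totals).

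Of the liver list, SUM minus SAN (1 call) had 3 with the compared seasons alone, 2 with edgeR, 3 with DESeq2 and 0 to 1 with a library left out. FOV minus SAN (0) had 1 with DESeq2. SUM minus SOV (2) had 1 with median of ratios, edgeR or DESeq2 and 1 to 3 with a library left out. For SUM and FOV over SAN and SOV (2), there were 4 with FOV_1 kept, a pseudocount of 5, the filter of 100 CPM, equal totals or edgeR, 1 with a pseudocount of 0.25, median of ratios or the replicate block, and 1 to 3 with a library left out. Of the 8 miRNAs most like miR-122, 1 remained within seasons, 3 without the 2 farthest libraries, an alternative chosen after seeing the data, and 4 to 7 with a library left out.

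No pairing of libraries by replicate number was detected. Of 21 same-numbered pairs, 3 had a correlation of deviations over 0.1 (-0.27 to 0.27), and 4 of 15 libraries correlated best with their own number. With so few libraries, each of mixed fluids, this cannot show that same-numbered libraries shared no mares. With the number as a block, miR-122 differed by 2.87 for SUM minus SOV and 50 miRNAs were called there. Few reads limit miR-483, miR-194 and miR-302b, where 1 read is worth up to 35.6 CPM.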

Other observations

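For SUM minus SOV, the comparison with the most calls, limma called 12 of the 48 tested miRNAs of all source lists (25%) and 7 of 40 without the erythrocyte list (17.5%), beside 17.7% of all 282. In SUM minus SAN it called 12.5% of the 48, beside 9.57% of all 282 (5.32% lower). The shares were 8.33% beside 2.84% in FOV minus SOV and 4.17% beside 3.55% in FOV minus SUM. Of 7 leukocyte miRNAs, miR-146a was called higher in SUM than SOV (log2 1.28, limma adjusted p = 0.0356) and in FOV than SOV (2.07, adjusted p = 0.0121), and miR-342-3p in neither. Of 4 endothelial and platelet miRNAs, miR-126-3p and miR-221 were called lower in SUM than SAN, and miR-126-3p lower in SUM than SOV (-1.55, adjusted p = 0.00804). Of 5 tested muscle miRNAs, miR-206 was called higher in SUM than SOV, and miR-1, the most abundant, differed by -2.28 (adjusted p = 0.0686). Of 8 pancreas and gut miRNAs, miR-141 and miR-200a were called higher in SUM than SOV and miR-429 higher in FOV than SOV, while miR-7 and miR-200b were not called. Of 8 brain miRNAs, miR-128 was called higher in SUM than SAN, SUM than SOV and FOV than SOV, and miR-9a was not. Of 8 granulosa and follicle miRNAs, miR-145 was called lower in SUM than SAN and SOV and higher in FOV than SUM, and miR-21 and miR-378 were not called. The calls of miR-145, those of miR-126-3p and miR-128 in SUM minus SOV and that of miR-128 in FOV minus SOV held in each alternative run. miR-146a in SUM minus SOV was lost in 5 alternatives, edgeR and DESeq2 among them, and without any 1 of 6 libraries (adjusted p up to 0.192), and in FOV minus SOV with edgeR or median of ratios (up to 0.0675). miR-206 was lost with edgeR or DESeq2 and without any 1 of 3 libraries (up to 0.0777). In SUM minus SAN, miR-126-3p was lost in 7 alternatives (up to 0.170), miR-221 in 6 (up to 0.133) and miR-128 in 4 (up to 0.101), each also without most single libraries. miR-429 was lost in 5 alternatives (up to 0.113), miR-141 with the compared seasons alone and without any 1 of 2 libraries (up to 0.0677), and miR-200a without any 1 of 4 libraries (up to 0.0840). In SOV minus SAN and FOV minus SAN, limma and edgeR called no member of any of these lists, and DESeq2 called 0 and 2. At an unadjusted p under 0.05 in limma there were 7 and 8 of the 48, beside 31 and 42 of all 282. DESeq2 called 1 and 12 of all 282.

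The neighbours of miR-122 by mean level over 16 libraries were miR-7 (5885 CPM) and miR-451 (5765 CPM) above it, and miR-125b-5p (4281 CPM) and miR-191a (3801 CPM) below it. Their ranges were 1013 to 39848 CPM for miR-7 and 395 to 17432 CPM for miR-451, wider than that of miR-122, and 1852 to 7204 CPM for miR-125b-5p and 1614 to 6509 CPM for miR-191a, narrower than it. None of the 4 ran closely with miR-122, with rho of -0.02, 0.06, -0.26 and 0.43 in that order.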
